A study of Mus musculus with 2 samples.

Results

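Transcripts of 7 cell adhesion genes were followed in single cells of 2 lines of mouse melanoma, B16F0 and B16F10. The genes were taken by name, as the rows Mcam, L1cam, Cd44, Itgb1, Itgav, Ctnnb1 and Tjp1 of a table of raw counts for 14959 genes, and all 7 had counts in both lines. B16F0 is labelled parental and B16F10 a highly metastatic subclone, and the labels name no treatment, genotype change or sorting for either line. Messenger RNA was captured in droplets and counted at its 3' end by unique molecular identifiers (UMIs), so each captured molecule counts once and splice forms of a gene, such as those of Cd44, are not separated. Each line was measured in 1 library. The line and its library therefore cannot be told apart, cells are not replicates, no test was possible, and every interval covers counting error only.

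Cells hold to each other and to the matrix around them through receptors that span the membrane and are tied to the actin skeleton inside. Integrins pair an alpha with a beta chain and bind matrix proteins, CD44 binds hyaluronan, and MCAM and L1CAM are receptors of the immunoglobulin superfamily. Beta-catenin and ZO-1 are not receptors: they sit on the inner side of cell-cell contacts, and beta-catenin also carries the Wnt signal into the nucleus. Melanoma is known for a switch of adhesion molecules as it spreads, with MCAM, L1CAM and the alpha-v integrins among those studied as markers of progression.

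The B16F0 library held 2582 cells and 94268486 UMIs, and the B16F10 library held 1574 cells and 56748682 UMIs. The median cell had 35503.5 UMIs in B16F0 and 34950.5 in B16F10, and mitochondrial transcripts took 5.41% and 6.78% of the UMIs. All 9 melanocytic marker genes were at 20 CPM or more (CPM being counts scaled to a common library total), with summed levels of 8098 CPM in B16F0 and 8043 CPM in B16F10. Past 1.5-fold, 2 of them were higher in B16F10 (Mitf and Tyrp1) and 3 lower (Tyr, Mlana and Pmel). Of 10 markers each, none for T and NK cells had counts, the fibroblast markers summed to 9.04 and 16.7 CPM, and the macrophage markers to 6.43 and 3.93 CPM. The endothelial markers summed to 66.8 and 65.2 CPM, nearly all from Egfl7, with Pecam1 at 15 and 21 counts. The epithelial markers summed to 0.552 and 0.0352 CPM. Barcodes shared by both libraries numbered 6. No cell type that should lack the adhesion genes was present, so the share of free RNA in their counts was not measured.

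Positions are those of GENCODE release M21 on GRCm38, and all 7 genes are annotated as protein-coding. Mcam lies on chromosome 9 from 44134469 to 44142727 on the plus strand and L1cam on chromosome X from 73853778 to 73896105 on the minus strand. Cd44 lies on chromosome 2 from 102811141 to 102901665 on the minus strand, and Itgav lies on the same chromosome from 83724397 to 83806916 on the plus strand. Itgb1 lies on chromosome 8 from 128685654 to 128733200 and Ctnnb1 on chromosome 9 from 120929216 to 120960507, both on the plus strand. Tjp1 lies on chromosome 7 from 65296165 to 65527781 on the minus strand. As many as 3 genes with counts of their own overlap a member: the antisense gene Gm10687 overlaps Mcam, Arhgap4 overlaps L1cam and Ulk4 overlaps Ctnnb1. They stood at no more than 2.03, 0.0636 and 5.74 CPM in either line.

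Upstream sequence is shown for members that differed most between the lines or between clusters, and for Cd44, whose upstream window differs in base composition from theirs. The windows are the 250 bases before the gene start in RefSeq on GRCm38.p6, which had an entry for all 7 members. Capitals mark matches on either strand to any of 6 motifs: the cAMP response element TGACGTCA, the E-box CACGTG, the MITF M-box core CATGTG, the AP-1 motif TGANTCA, the SP1 box GGGCGG and the TEAD motif GGAATG. For Mcam only a stretch of 30 bases around its response element is shown, at chr9:44134618-44134647 on the plus strand, since GENCODE, whose Mcam start lies farther upstream, places 189 bases of that window in exons of the gene. All 30 bases shown lie in those exons, so they are upstream by the RefSeq start only. The Mcam stretch is an exception to the marking, since its capitals mark the response element only. An SP1 box on the opposite strand, which begins 38 bases before the RefSeq start, lies in this stretch in lower case. The windows of L1cam, Ctnnb1 and Tjp1 lie inside the GENCODE spans given above, so they too are upstream by the RefSeq start only.
Mcam: ccccgccccccTGACGTCAgcccccgacag
L1cam, second start site, chrX:73880835-73881084, minus strand: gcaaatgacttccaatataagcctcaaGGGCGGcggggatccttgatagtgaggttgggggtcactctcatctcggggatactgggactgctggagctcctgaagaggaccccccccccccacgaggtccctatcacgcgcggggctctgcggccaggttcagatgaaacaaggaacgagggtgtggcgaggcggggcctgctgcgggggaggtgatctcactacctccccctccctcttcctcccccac
Cd44, chr2:102901666-102901915, minus strand: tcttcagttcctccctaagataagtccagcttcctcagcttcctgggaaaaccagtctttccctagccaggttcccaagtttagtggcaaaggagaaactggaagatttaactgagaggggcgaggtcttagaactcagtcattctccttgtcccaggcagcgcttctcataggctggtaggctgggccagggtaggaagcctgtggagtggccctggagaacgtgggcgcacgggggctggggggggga
Tjp1, chr7:65371245-65371494, minus strand: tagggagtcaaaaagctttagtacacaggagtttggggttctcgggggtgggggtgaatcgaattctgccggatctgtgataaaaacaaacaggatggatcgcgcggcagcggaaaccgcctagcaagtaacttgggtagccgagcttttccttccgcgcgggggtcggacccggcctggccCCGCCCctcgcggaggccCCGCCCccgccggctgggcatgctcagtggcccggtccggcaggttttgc

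The response element of Mcam begins 29 bases before the RefSeq start, and its window also holds 5 SP1 boxes. Of 32851 RefSeq windows of this length, 1.55% hold the response element and 32.7% hold an SP1 box. The E-box was found in 6.02% of windows, the M-box core in 12.3%, the AP-1 motif in 6.75% and the TEAD motif in 12.6%. L1cam and Itgb1 have 1 SP1 box in each window, Tjp1 has 2, and Ctnnb1 has 3 at its first start site and 2 at its second. The 2 Ctnnb1 windows overlap, and the 2 boxes of the second are among the 3 of the first. Itgb1 has the one TEAD match among the members, 7 bases before its start, and the Cd44 and Itgav windows hold no match. No match overlapped that of another motif. The GC content is 56.4% in the Cd44 window and 73.6% in the Mcam window, and CG dinucleotides number 5 and 25. The median over all windows is 52.4% GC. A match describes letters in the window and says nothing of binding in these cells.

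Between the lines, 5 of the 7 members were higher in B16F10 by 1.5-fold or more, L1cam was lower by as much and Itgb1 lay between. With each of 10 other choices of scaling or of cells, the count of higher members was 4. Of the 5296 genes that reached 20 CPM in either line, 10.6% were higher in B16F10 by 1.5-fold or more and 6.12% lower. The median log2 ratio was 0.72 over the members and 0.12 over those genes. L1cam did not reach 20 CPM in either line, and Mcam and Tjp1 reached it only in B16F10. Over the 9024 genes at 5 CPM or more, a minimum that every member reached in both lines, the shares were 11.8% higher and 6.59% lower. At 2-fold, Mcam was higher and L1cam lower, where 1.53% and 1.6% of genes at 20 CPM were past that size. L1cam is not among those genes, and over the genes at 5 CPM the shares were 1.99% higher and 2.13% lower.

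**Figure D1:**
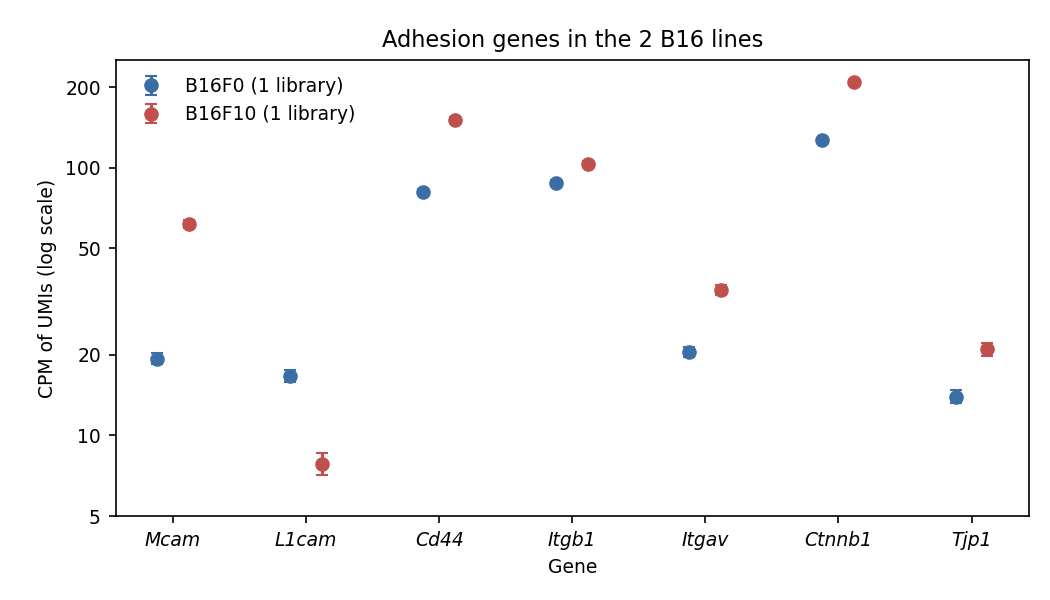
Level of the 7 adhesion genes in each line, as CPM of all UMIs on a log axis, with 1 library per line and 95% Poisson intervals for counting error. Mcam stands at 19.3 and 61.5 CPM, L1cam is the one gene whose B16F10 point lies below its B16F0 point, and the Itgb1 points lie close together.

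Of the immunoglobulin superfamily receptors, Mcam, the melanoma cell adhesion molecule that binds laminin alpha chains and signals to the cytoskeleton, had a level of 19.3 CPM in B16F0 cells (18.5 to 20.2, a 95% Poisson interval). Its level in B16F10 cells was 61.5 CPM (59.5 to 63.6). The ratio of the levels, B16F10 over B16F0, was 1.67 on the log2 scale (exact interval 1.59 to 1.75), or 3.18-fold, and ranked 19 from the highest among the 5296 genes. L1cam, a receptor known from axon growth that binds itself and integrins on neighbouring cells, had 16.7 CPM (15.9 to 17.6) in B16F0 cells against 7.81 CPM (7.10 to 8.57) in B16F10 cells. The log2 ratio was -1.10 (-1.25 to -0.95). The level in B16F0 was thus 2.14-fold that in B16F10, resting on 1576 and 443 counts. The 2 receptors of one superfamily stood on opposite sides of the typical gene.

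Cd44, the hyaluronan receptor, had 81.5 CPM (79.7 to 83.4) in B16F0 cells against 151 CPM (148 to 154) in B16F10 cells. The log2 ratio was 0.89 (0.84 to 0.93), which ranked 132. Of the integrin chains, Itgav, which pairs with several beta chains to bind vitronectin and fibronectin, had 20.5 CPM (19.6 to 21.4) against 35.03 CPM (33.5 to 36.6). The log2 ratio was 0.77 (0.68 to 0.87). Itgb1, the beta chain shared by most integrins, had 87.95 CPM (86.1 to 89.9) against 103 CPM (101 to 106), and its log2 ratio of 0.23 (0.18 to 0.28) ranked 2015. The 2 chains of the alpha-v beta-1 pair did not differ between the lines to the same extent.

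Of the proteins at the inner side of contacts, Ctnnb1, which encodes beta-catenin, had 127 CPM (125 to 130) in B16F0 cells against 209 CPM (206 to 213) in B16F10 cells. The log2 ratio was 0.72 (0.68 to 0.76). Tjp1, which encodes the junction scaffold ZO-1, had 13.96 CPM (13.2 to 14.7) against 20.95 CPM (19.8 to 22.2), and its log2 ratio was 0.59 (0.47 to 0.70). Tjp1 lay on the 1.5-fold line itself. With TMM factors its log2 ratio was 0.49 and 4 members were past that size. The count of higher members was 4 in every one of the 10 alternatives, and L1cam was lower in each of them. The member that fell short was not always Tjp1. In the non-cycling, C3 and C4 cells alone it was Ctnnb1, at 0.55, 0.51 and 0.42, and Tjp1 was past 1.5-fold there.

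The deposited cell table places the cells in clusters, called Cluster2, which the authors made from these same cells, so a cluster set against the rest is a description. Classes with at least 50 cells were C1 to C4 in B16F0, with 816, 644, 640 and 469 cells, and C3 to C5 in B16F10, with 306, 212 and 1045 cells. Only C3 and C4 were thus filled in both lines. In B16F0, 11.1% of C3 cells and 99.6% of C4 cells were called cycling, and in B16F10 8.497% and 100%.

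The difference between the lines kept its sign for all 7 members within both shared clusters. These clusters are parts of the same libraries, and the share of all genes that kept their sign is not given. In C3, 4 members were higher in B16F10 by 1.5-fold or more and 1 lower, beside 8.39% and 9.83% of genes at 20 CPM. In C4 the counts were again 4 and 1, beside 17.4% and 15.1% of genes. The lower member was L1cam, under 20 CPM in both clusters, and over genes at 5 CPM the lower shares were 9.48% in C3 and 14.2% in C4. Mcam had a log2 ratio of 1.39 (1.22 to 1.56) in C3 and 1.97 (1.78 to 2.17) in C4, and these intervals do not overlap. L1cam had -1.13 (-1.48 to -0.80) and -1.39 (-1.91 to -0.89), where B16F10 had 88 and 38 counts. Cd44 had 0.64 (0.54 to 0.74) and 0.88, Itgav 0.85 and 0.87, and Itgb1 0.24 and 0.38. Ctnnb1 was under 1.5-fold in both, at 0.51 (0.43 to 0.60) and 0.42 (0.31 to 0.52). Tjp1 had 0.61 (0.35 to 0.87) in C3 and 1.08 (0.83 to 1.33) in C4.

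Across all 7 classes, Mcam stood at 15.3 CPM in C1, 19.5 in C2, 22.3 in C3 and 20.5 in C4 of B16F0, and at 58.5 in C3, 80.6 in C4 and 58.7 in C5 of B16F10. Every B16F10 class lay above every B16F0 class. C4 of B16F10 was the highest and C1 of B16F0 the lowest, each with an interval clear of its neighbour, while the intervals of C2, C3 and C4 of B16F0 overlapped, as did those of C3 and C5 of B16F10. L1cam stood at 18.0, 13.7, 19.3 and 15.5 CPM in C1 to C4 of B16F0 and at 8.83, 5.94 and 7.88 in C3 to C5 of B16F10. Its order ran the other way, with every B16F10 class below every B16F0 class, and the 3 B16F10 intervals overlapped.

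**Figure D2:**
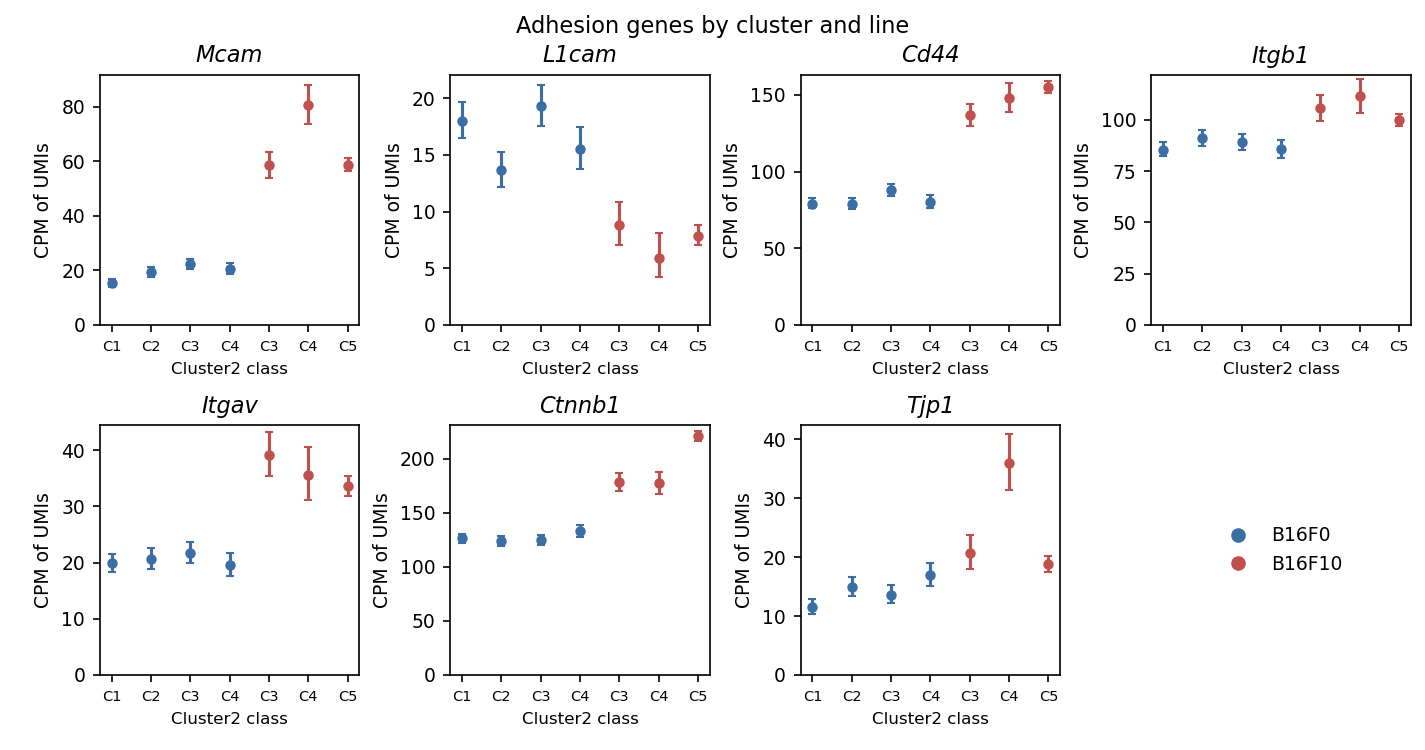
CPM of each adhesion gene by Cluster2 class and line, with 95% Poisson intervals for counting error and each vertical axis starting at 0. The 3 B16F10 classes lie above the 4 B16F0 classes for all genes but L1cam, and C4 of B16F10 stands apart for Mcam at 80.6 CPM and for Tjp1 at 35.9 CPM.

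Cd44 stood between 79.0 and 88.0 CPM in the B16F0 classes and between 137 and 155 CPM in the B16F10 classes. Itgav stood between 19.5 and 21.7 CPM and between 33.5 and 39.1 CPM. Both genes thus varied little among the clusters of a line and more between the lines. Itgb1 stood between 85.5 and 90.9 CPM in B16F0 and between 99.9 and 111 CPM in B16F10, with overlapping intervals among the B16F0 classes. Ctnnb1 stood between 124 and 133 CPM in B16F0, and in B16F10 at 179 CPM (171 to 187) in C3, 178 CPM (167 to 188) in C4 and 221 CPM (217 to 226) in C5. Its B16F10 level was therefore highest in C5, a cluster with 13 cells in B16F0, and the smaller ratios within C3 and C4 leave C5 out. Set against the other cells of B16F10, C5 had a log2 ratio of 0.29 (0.23 to 0.35) for Ctnnb1, where the median gene had 0.10.

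Tjp1 was the member that varied most among the clusters of a line. It stood at 11.6, 14.9, 13.6 and 17.0 CPM in C1 to C4 of B16F0, and at 20.8 CPM (18.0 to 23.8) in C3, 35.9 CPM (31.4 to 40.9) in C4 and 18.8 CPM (17.5 to 20.2) in C5 of B16F10. The highest class was 1.47-fold the lowest in B16F0 and 1.91-fold in B16F10, where the median gene had 1.33 and 1.43. Such a spread of 1.5-fold or more was seen in 29.2% of genes in B16F0 and in 41.1% in B16F10, and among the members in Tjp1 of B16F10 alone. The smallest spreads were those of Itgb1, 1.06-fold and 1.12-fold.

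C4 set against C3 gave no member past 1.5-fold in B16F0, where 11.9% of genes were past it, and Tjp1 in B16F10, where 22.8% were. The log2 ratio of Tjp1 was 0.32 (0.09 to 0.55) in B16F0 and 0.79 (0.51 to 1.07) in B16F10. That of Mcam was -0.12 (-0.32 to 0.07) and 0.46 (0.29 to 0.64), so the intervals of the 2 lines did not overlap for Mcam and did for Tjp1. L1cam had -0.32 (-0.53 to -0.10) and -0.57 (-1.16 to -0.01), just short of 1.5-fold lower in B16F10. C4 cells of B16F10 had a median of 29693 UMIs and a mitochondrial share of 8.43%, beside 34950.5 UMIs and 6.78% over that library, and the part of these in the values of Tjp1 and Mcam was not tested. Over all clusters, in cells of at most 8% mitochondrial UMIs, the log2 ratio of B16F10 over B16F0 was 0.47 for Tjp1 and 1.56 for Mcam, beside 0.59 and 1.67 in all cells.

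Cells called cycling had an S or G2/M score above 0 in the deposited table, and made up 54.6% of B16F0 and 78.1% of B16F10. No member differed by 1.5-fold between cycling and non-cycling cells in either line, where 10.4% of genes did in B16F0 and 16.4% in B16F10. L1cam was lower in cycling cells by similar amounts, with a log2 ratio of -0.34 (-0.49 to -0.20) in B16F0 and -0.34 (-0.66 to -0.01) in B16F10. The median gene had 0.06 in B16F0 and 0.11 in B16F10. Ctnnb1 had 0.06 (0.01 to 0.11) in B16F0, the level of the median gene, and 0.25 (0.18 to 0.32) in B16F10, above it. Of the 1230 cycling cells of B16F10, 986 lay in C5, where Ctnnb1 was highest at 221 CPM. In C4 of B16F10, with all cells cycling, Ctnnb1 stood at 178 CPM, beside 182 CPM in non-cycling cells. Cd44 had -0.03 (-0.10 to 0.03) in B16F0 and 0.17 (0.09 to 0.25) in B16F10, the latter 0.06 above the median gene, and Itgav had -0.01 (-0.14 to 0.12) and -0.23 (-0.38 to -0.07). For Ctnnb1 and Cd44 the 2 intervals did not overlap, and whether the lines differ in this was not tested. Tjp1 had 0.28 (0.11 to 0.44) and 0.09 (-0.12 to 0.31), Mcam 0.02 and 0.10, and Itgb1 0.02 and -0.10.

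With the classes held apart, the difference between the lines kept its sign for all 7 members, again in parts of the same libraries and with no share of all genes beside it. Among non-cycling cells the log2 ratio of B16F10 over B16F0 was 1.60 for Mcam, -1.01 for L1cam, 0.73 for Cd44 and 0.32 for Itgb1. It was 0.95 for Itgav, 0.55 for Ctnnb1 and 0.67 for Tjp1. Among cycling cells it was 1.68 for Mcam, -1.01 for L1cam, 0.93 for Cd44 and 0.20 for Itgb1, and 0.73 for Itgav, 0.74 for Ctnnb1 and 0.49 for Tjp1. The Ctnnb1 ratio was larger among cycling cells, with intervals of 0.69 to 0.78 and 0.48 to 0.63. So was the Cd44 ratio, with 0.88 to 0.99 and 0.64 to 0.82, while the Tjp1 intervals of 0.35 to 0.63 and 0.44 to 0.90 overlapped. In C4, where nearly all cells of both lines were cycling, the Ctnnb1 ratio was 0.42 (0.31 to 0.52). The larger Ctnnb1 ratio was thus not seen in every cycling cluster.

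**Figure D3:**
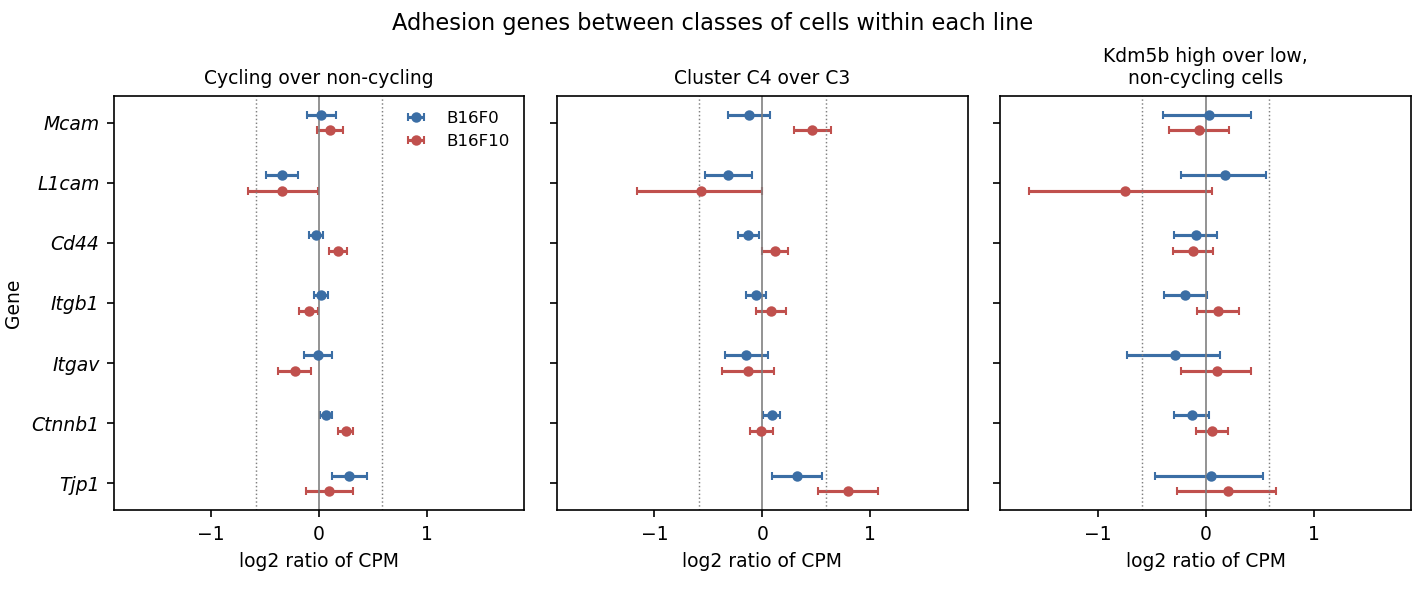
Log2 ratio of CPM between classes of cells within each line, with exact 95% intervals for counting error: cycling over non-cycling cells, cluster C4 over C3, and Kdm5b-high over Kdm5b-low among non-cycling cells. Dotted lines mark 1.5-fold, and Tjp1 in C4 over C3 of B16F10, at 0.79, and L1cam in the Kdm5b classes of B16F10, at -0.74, are the points beyond them.

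Kdm5b encodes a histone demethylase known to mark slowly dividing melanoma cells, and the deposited table splits cells by its level. The Kdm5b-high class held 111 cells of B16F0 and 121 of B16F10. Of these 18.0% and 36.4% were called cycling, beside 56.3% and 81.6% of the Kdm5b-low cells. Over all cells no member was past 1.5-fold, where 4.66% of genes in B16F0 and 6.09% in B16F10 were. Cd44 was lower in the Kdm5b-high cells of B16F10, at 130 CPM beside 152 CPM, a log2 ratio of -0.23 (-0.36 to -0.10), and had -0.06 (-0.24 to 0.12) in B16F0. Itgb1 had -0.18 in B16F0, with an interval that ends just below 0, and 0.13 (-0.01 to 0.27) in B16F10.

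Among non-cycling cells the high class held 91 cells of B16F0 and 77 of B16F10, and all 14 intervals included 0. Cd44 then had -0.12 (-0.30 to 0.07) in B16F10. No member was past 1.5-fold in B16F0, where 0.992% of genes were, and L1cam was in B16F10, where 1.6% were. L1cam had 6.16 and 10.3 CPM there, and over genes at 5 CPM the share was 6.97%. Its log2 ratio of -0.74 (-1.64 to 0.06) rests on 15 and 90 counts. No difference of the members by Kdm5b class was detectable at this depth once cycling cells were left out. Within cycling cells the high class held 20 and 44 cells, too few to be set apart.

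To compare shares of cells, each cell was thinned to 23173 UMIs, and shallower cells, 388 in B16F0 and 158 in B16F10, were left out. At this depth Mcam had a UMI in 28.8% (exact interval 26.9 to 30.8) of B16F0 cells and in 62.9% (60.3 to 65.4) of B16F10 cells. L1cam had one in 31.1% (29.2 to 33.1) and 15.5% (13.7 to 17.5). In B16F0 a cell thus showed either receptor about equally often, and in B16F10 Mcam far more often. Without thinning the shares were 38.3% and 72.6% for Mcam and 41.9% and 22.0% for L1cam. Cd44 had a UMI in 81.5% and 94.6% of thinned cells, Itgav in 37.3% and 53.6%, Ctnnb1 in 92.7% and 98.2%, and Tjp1 in 27.1% and 39.8%. Itgb1 had one in 86.6% (85.1 to 88.0) and 87.9% (86.0 to 89.5), with overlapping intervals, while its unthinned shares were 90.7% and 94.2%. The unthinned shares were 87.2% and 96.3% for Cd44, 49.7% and 66.5% for Itgav, 96.3% and 99.1% for Ctnnb1, and 38.7% and 51.0% for Tjp1.

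**Figure D4:**
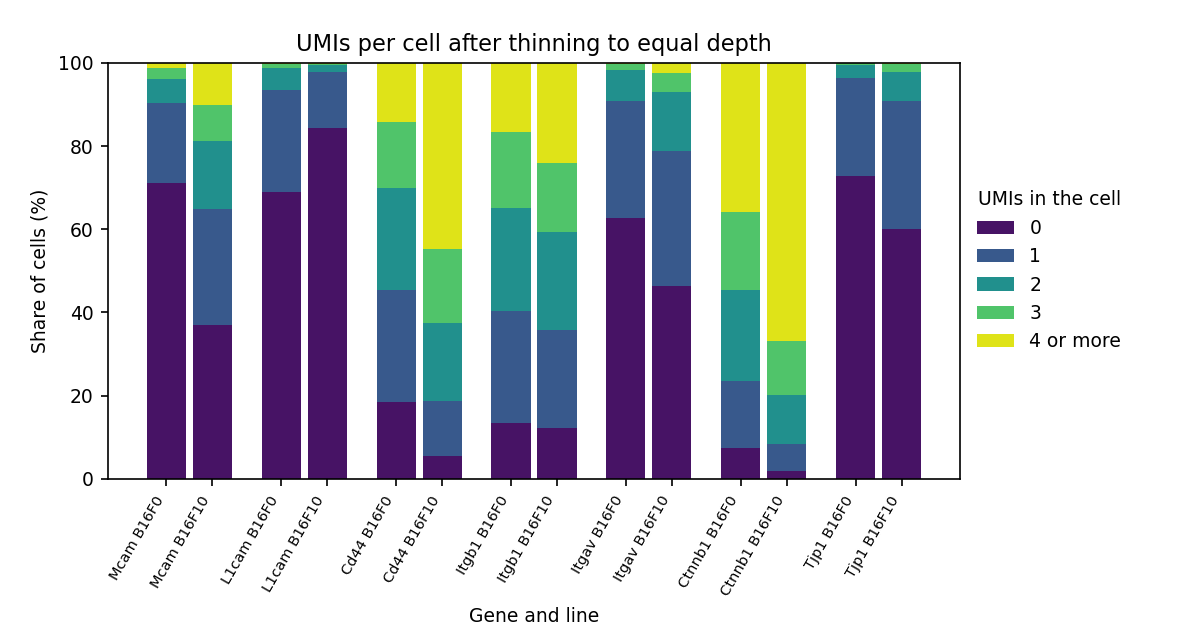
Share of cells by number of UMIs of each gene, after each cell was thinned to 23173 UMIs, in 2194 cells of B16F0 and 1416 of B16F10. Cells with 4 or more Mcam UMIs made up 1.09% of B16F0 and 10.2% of B16F10, while 37.1% of B16F10 cells held none.

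Mcam was the member spread most unevenly over cells. In B16F10 37.1% of thinned cells had no Mcam UMI, beside the 24.5% that a Poisson distribution of the same mean gives, while 10.2% had 4 or more and the highest had 15. In B16F0 71.2% had none, beside 64.5%. The Fano factor, the variance over the mean of thinned counts, was 1.58 in B16F0 and 2.09 in B16F10. Among genes with a mean of 0.1 or more thinned UMIs per cell, the median was 1.09 and 1.11 and the 90th percentile 1.57 and 1.61. Those genes were not matched to Mcam by mean level. The uneven spread was also seen within clusters of B16F10, at 1.91 in C3, 1.80 in C4 and 2.14 in C5. The share with 4 or more UMIs was 9.34% (6.08 to 13.6) in C3, 15.3% (10.3 to 21.4) in C4 and 9.34% (7.59 to 11.3) in C5, with overlapping intervals.

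The other members lay below those 90th percentiles. Cd44 had Fano factors of 1.38 in B16F0 and 1.54 in B16F10, Ctnnb1 1.31 and 1.48, and Itgb1 1.16 and 1.42. L1cam had 1.12 and 1.23 and Itgav 1.07 and 1.23. Tjp1, at 0.983 and 1.08, was close to Poisson counting. Its share of cells with a UMI by cluster followed its level, at 55.9% (48.3 to 63.4) in C4 of B16F10, 40.9% (34.8 to 47.1) in C3 and 36.9% (33.8 to 40.0) in C5, and at 63.2%, 49.3% and 49.4% without thinning.

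Across cells of one line the members were only weakly related. Over 21 pairs, Pearson's r of the log of 1 plus the thinned count ran from -0.05 to 0.13 in B16F0, with a median of 0.02, and from -0.04 to 0.21 in B16F10, with a median of 0.06. At r of 0.1 or more were 2 pairs in B16F0 and 8 in B16F10, with no share over pairs of other genes to set beside them. Mean thinned UMIs per cell were 0.44 in B16F0 and 1.41 in B16F10 for Mcam, and 1.93 and 3.57 for Cd44. The part of such levels in these counts of pairs was not tested. The pair with the highest r in both lines was Mcam with Itgb1, at 0.13 over 2194 cells and 0.21 over 1416 cells. Cd44 with Ctnnb1 followed at 0.10 and 0.16, while Mcam with L1cam had 0.10 and 0.07. The 2 receptors that stood on opposite sides between the lines were thus not opposed from cell to cell. In non-cycling cells Mcam with Itgb1 had 0.12 and 0.27, Mcam with L1cam 0.14 and 0.15, and Cd44 with Ctnnb1 0.13 and 0.19. The order of the pairs in B16F0 thus changed with the cells used. Cells share their library and depth, and in sparse counts such values describe the data and are no finding.

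Over the 7 classes of 2 libraries, the genes with the profiles most like a member were sought among 3098 genes at 50 CPM or more in some class, by Pearson's r of log2 of CPM plus 1. Hspe1 and Alkbh1 were among the nearest to Mcam, Hspe1 with r of 0.994, and Rida, Gstm1 and Atraid to L1cam, the first with 0.998. Gstm1, a glutathione transferase, had 82.9 CPM in the B16F0 library against 21.7 CPM in the other. Myadm, Tln1 and Ube3a were nearest to Cd44, with 0.992 for Myadm, and Tln1 encodes talin, which links integrins to actin. For Itgb1 they were Pnisr, Strn3 and Lrrc58, for Itgav Drap1, Ppargc1a and App, for Ctnnb1 Ube2j1, Dlat and Coro1c, and for Tjp1 Cdc42se2, Tsc22d2 and R3hdm1. With 7 points from 2 lines, such values mainly follow the step between the lines.

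The known partners of the 7 proteins were listed by function as 185 genes in 11 lists, of which 142 were in the counts and 57 at 20 CPM or more. Of these 57, 12 were higher in B16F10 by 1.5-fold or more and Psen2 alone was lower, with a median log2 ratio of 0.24 beside 0.12 over all genes and with the 10.6% and 6.12% given above. The same counts with TMM factors had 2 lower genes. Among the 12, Fn1, Lamc1, Ezr, Cldn12 and Cadm4 reached 20 CPM only in B16F10.

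**Figure D5:**
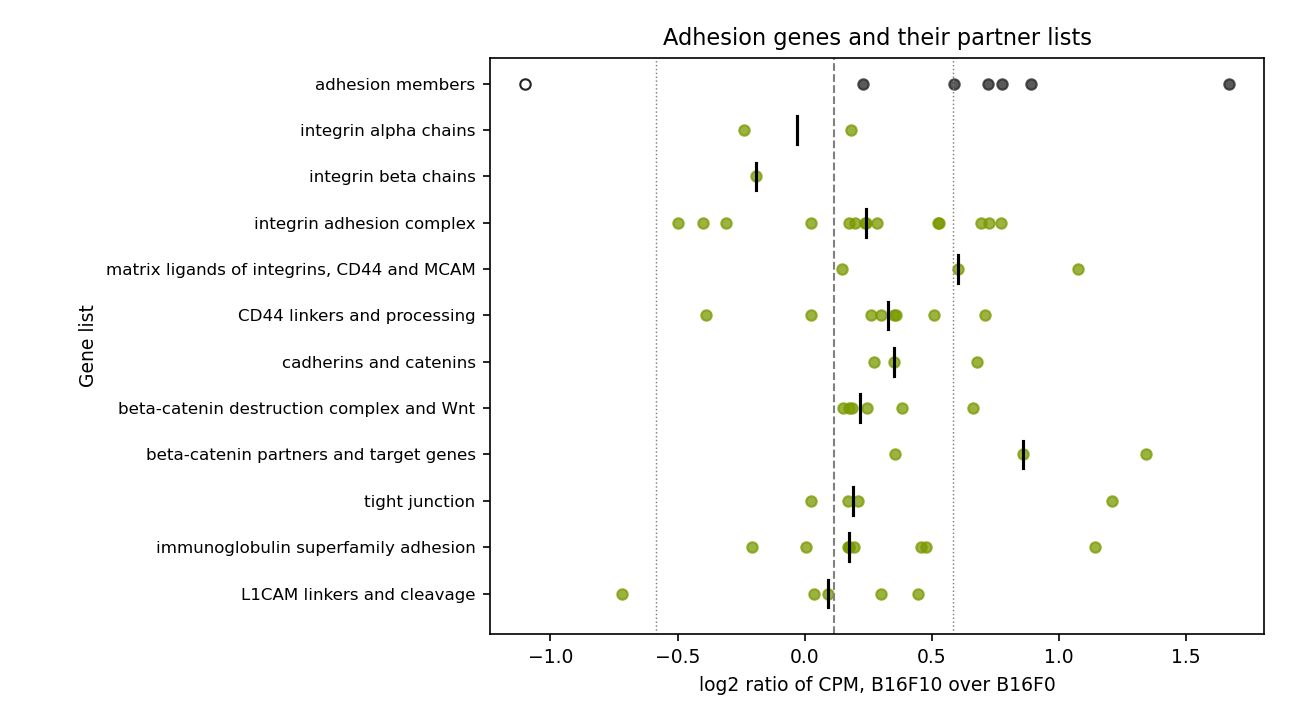
Log2 ratio of CPM, B16F10 over B16F0, for the 7 adhesion genes and for their partner genes at 20 CPM or more, by list, with 1 point per gene. The bars mark list medians, the dashed line the median gene at 0.12, the dotted lines 1.5-fold, and the open point is L1cam, which is under 20 CPM in both lines.

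Few other integrin chains reached 20 CPM. Of 13 alpha chains in the counts 2 did, Itga4 at 28.8 and 32.7 CPM and Itga6 at 35.7 and 30.2 CPM, and of 5 beta chains only Itgb5, at 27.8 and 24.3 CPM. None was past 1.5-fold, and the log2 ratios were 0.18, -0.24 and -0.19. Among beta chains that pair with alpha-v, Itgb3 stood at 2.42 and 4.86 CPM and Itgb8 at 1.05 and 0.476 CPM. Itga5, the fibronectin receptor chain that pairs with beta-1, stood at 5.51 and 7.08 CPM. Itgav was thus the chain with a ratio past 1.5-fold among the integrin chains at 20 CPM.

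Of 14 genes of the complex that ties integrins to actin, 3 had a B16F10 level at least 1.5-fold that in B16F0, none was lower, and the list median was 0.24. They were the actin crosslinkers Actn1 at 0.77 (0.69 to 0.86) and Actn4 at 0.72 (0.68 to 0.77), and Tln1 at 0.69 (0.64 to 0.75), which stood at 60.4 and 97.6 CPM. Of the matrix ligands, 3 of 16 in the counts reached 20 CPM. Fn1, which encodes fibronectin, had levels of 11.7 and 24.7 CPM and a log2 ratio of 1.08 (0.96 to 1.19), and the laminin chain gene Lamc1 had 0.60 (0.48 to 0.72). Cyr61, a matricellular integrin ligand, had 0.15. Lama4, the laminin chain bound by MCAM, stood at 10.4 and 14.4 CPM.

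Of 8 genes that link CD44 to the skeleton or process it, Ezr, which encodes ezrin, was past 1.5-fold at 0.71 (0.61 to 0.80). Hmmr, a hyaluronan receptor that acts in mitosis, had 0.51, and the sheddase gene Adam10 had -0.39. Of 5 linkers and proteases of L1CAM, the presenilin gene Psen2 was lower in B16F10, with levels of 126 and 76.8 CPM and a log2 ratio of -0.72 (-0.77 to -0.67). The actin linker gene Rdx had 0.30.

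Of the cadherins and catenins 3 reached 20 CPM, and Ctnnd1, which encodes the p120 catenin that holds cadherins at the membrane, was past 1.5-fold at 0.68 (0.59 to 0.76). Ctnna1, which ties beta-catenin to actin, had 0.35, and Cdh2, which encodes N-cadherin, stood at 30.1 and 36.3 CPM. Cdh1, which encodes E-cadherin, had 13 counts in B16F0 and 2 in B16F10. Of 6 genes of the complex that degrades beta-catenin and of Wnt signalling, Gsk3a was past 1.5-fold at 0.66 (0.58 to 0.74), and Csnk1a1 and Fbxw11 had 0.38 and 0.25. Of 3 partners and target genes of beta-catenin, Ccnd1, the gene of cyclin D1, had levels of 56.4 and 143 CPM and a log2 ratio of 1.34 (1.29 to 1.39). The melanocytic factor gene Mitf had 0.86 (0.82 to 0.90) and the DNA-binding partner gene Tcf7l2 0.35.

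Of 4 tight junction genes at 20 CPM, Cldn12 was past 1.5-fold, at 11.2 and 25.8 CPM and a log2 ratio of 1.21 (1.09 to 1.32). The polarity gene Pard3 had 0.21 and the junction adaptor gene Afdn 0.17. Of 9 other genes of immunoglobulin superfamily adhesion, Cadm4 was past 1.5-fold, at 12.3 and 27.1 CPM and 1.14 (1.03 to 1.25). Nectin3 had 0.48 and Ncam1 0.46. As for Mcam and Tjp1, the partner genes Cldn12, Cadm4, Fn1, Lamc1 and Ezr reached 20 CPM only through B16F10. Their place among the higher genes thus follows in part from the minimum.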

How the data were processed

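Single-cell 3' RNA of B16F0 and B16F10 was counted with 10x chemistry v2, per the labels' protocols, as 1 library per line. The authors deposited raw UMI counts for 14959 genes in 4156 cells, unnormalized, per the file headers. The authors also deposited, per the file headers, each cell's line, clusters, cycling class, Kdm5b class, and S and G2/M scores, which served here to check the cycling class. The submitters' processing notes name Cell Ranger 3.0.0, Seurat 3.0 and mm10, the genome build. Settings, cell filters and the making of clusters and classes are not given in these sources. A table of natural log values was not used.

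Cells were mapped to a line by the deposited cell table, all were kept, and no doublet caller was run. An alternative left out the 5% of cells with the most UMIs. Counts were summed per line or class and scaled by the total to CPM, with exact Poisson intervals, and log2 ratios carry exact conditional binomial intervals, both at 95%. For shares of cells the intervals are exact (Clopper-Pearson). A gene with 0 counts in a whole library could have up to 3 counts, which are 0.0318 CPM in B16F0 and 0.0529 CPM in B16F10. UMIs reduce amplification copies, and intervals still cover counting error only. With 1 library per line there is no test and no p-value. Genes were counted at 1.5-fold, and between the lines also at 2-fold. Thinning drew UMIs without replacement to the 10th percentile of B16F10.

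The members and gene lists were chosen with earlier results of these data known. The named genes are all members, the 3 genes with the largest absolute log2 ratio at 20 CPM in each partner list, and the 3 genes most like each member over the classes. Predicted, ribosomal protein and mitochondrially encoded genes were left out of that search, and some genes the rule names are not reported here. Itgb3, Itgb8, Itga5, Lama4 and Cdh1 were named for their role, after their values were seen. Counting all 7 members in place of those at 20 CPM, which had left L1cam out, and all shares at 5 CPM were chosen after the values were seen, as were the comparisons within C3 and C4. The ratio steps were tested on simulated counts. Scaling factors came from edgeR 4.0.16 and DESeq2 1.42.0 in R 4.3.3, and all else was computed with scipy 1.17.1, numpy 2.4.6, pandas 2.3.3 and matplotlib 3.10.9 under Python 3.11.15.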

Additional observations from a re-analysis of the deposited data

Results flagged for a closer look

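For 2 members the same cluster stood on opposite sides of the rest of its line in B16F0 and in B16F10, with intervals clear of 0 in both, and in neither case was the difference between the lines tested. Cd44 in C3 had a log2 ratio to the other cells of 0.15 (0.07 to 0.22) in B16F0, at 88.0 CPM in C3 and 79.4 CPM in the rest, and of -0.17 (-0.26 to -0.09) in B16F10, at 137 and 154 CPM. Ctnnb1 in C4 had 0.082 (0.02 to 0.15) in B16F0, at 133 and 126 CPM, and -0.27 (-0.35 to -0.18) in B16F10, at 178 and 213 CPM. In each case 1 of the 2 signs was that of the median gene: it had -0.15 in C3 of B16F10 and 0.09 in C4 of B16F0, and relative to it Cd44 had -0.025 and Ctnnb1 -0.0036. In C3 of B16F0 Cd44 lay 0.18 above the median gene, and in C4 of B16F10 Ctnnb1 had -0.31 relative to it. The other cells of B16F0 lay mostly in C1 and C2 and those of B16F10 mostly in C5, so the rest is a different set of cells in each line.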

How the results depend on the processing

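Over the 10 alternatives of scaling and of cells, the log2 ratio of B16F10 over B16F0 ran from 1.39 to 1.97 for Mcam, from -1.39 to -1.01 for L1cam, from 0.64 to 0.93 for Cd44, from 0.13 to 0.38 for Itgb1, from 0.62 to 0.95 for Itgav, from 0.42 to 0.74 for Ctnnb1 and from 0.47 to 1.08 for Tjp1. None changed sign. DESeq2 size factors moved the median gene by -0.10 and the C3 cells alone by -0.13. The count of members lower in B16F10 cells of C4 than of C3 was 1, L1cam, with the mean of per-cell CPM and when mitochondrial and ribosomal protein genes were left out of the total, where the count was 0 otherwise. That total also gave 1 lower member, Tjp1, in C5 against the other cells of B16F10, and the non-cycling cells alone gave 1 lower member, L1cam, in Kdm5b-high cells of B16F10. Pairs of members at r of 0.1 or more in B16F0 numbered 4 with unthinned counts. Of the partner genes 33 were higher and 19 lower with no minimum, 3 were higher with a minimum of 100 CPM, and 2 were lower with TMM factors and 2 with DESeq2 size factors. The causes were not tested. Shares of all genes with no minimum or at 100 CPM are not given, so those partner counts have no background. With no minimum, genes of few counts also pass, such as Ank3 with 1 count in B16F0 and 11 in B16F10. No paired analysis was possible because each line has 1 library. Depth limits L1cam most, with 38 counts in C4 of B16F10 and 15 in its non-cycling Kdm5b-high cells.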

Other observations

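Once the uneven spread of Mcam over cells had been seen, the genes that vary with each member from cell to cell were listed, by the lower of the Pearson correlations in the 2 lines over 4133 genes, on thinned counts. These values describe cells that share a library and a depth. Mcam had its highest values with Sparc, a secreted matricellular glycoprotein, at 0.29 in B16F0 and 0.34 in B16F10, and with Tnfrsf12a, the receptor for the cytokine TWEAK, at 0.27 and 0.30. Fam198b followed at 0.23 and 0.27, the natriuretic peptide gene Nppb at 0.25 and 0.21, and Ccnd1 at 0.19 and 0.25. Itgb1 had its highest with Sparc as well, at 0.19 and 0.21. Cd44 had its highest with Mgat5, a glycosyltransferase that branches N-glycans, at 0.19 and 0.24. Tecpr1 came next at 0.19 and 0.18, and then the pigment gene Slc45a2 at 0.18 and 0.22. Ctnnb1 had its highest with the lipid desaturase gene Scd2, at 0.16 and 0.30, while the highest values of L1cam and Itgav were 0.09 and 0.10 in B16F0 and 0.11 in B16F10 for both.

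Alcam, an immunoglobulin superfamily receptor known like Mcam from melanoma, was under 20 CPM in both lines and was chosen after its values were seen. It had 18.1 CPM in B16F0 cells and 7.15 CPM in B16F10 cells, on 1705 and 406 counts, so it stood on the side of L1cam and not on that of Mcam. Other genes of this superfamily under 20 CPM went both ways. Nectin2 was higher in B16F10, at 6.61 and 16.5 CPM, and Icam2 lower, at 1.69 and 0.388 CPM, both also chosen after their values were seen.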
